A study of Homo sapiens with 6 samples.

Results

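The 10 transcription factor genes described here help set urothelial identity. They were followed in 5637, a human bladder cancer cell line, after transfection with a plasmid carrying MAT1A. The genes were taken by symbol from the deposited table: GATA3, FOXA1, PPARG, KLF5, ELF3 and GRHL2 as luminal regulators, TP63 and TFAP2A as basal regulators, and GRHL3 and OVOL1 as regulators of terminal differentiation. All 10 were found among its 13271 genes, and all 10 passed the filter on low values, 1 or more in 3 or more libraries, which left 12866 genes tested. The samples were 3 libraries from cells that received the MAT1A plasmid and 3 from cells that received an empty vector (control). Lipofectamine carried the DNA into cells at 50% confluency in both groups, and lysis followed 48 h later. MAT1A encodes the methionine adenosyltransferase that liver uses to make S-adenosylmethionine, the methyl donor of the cell. Whether replicates came from separate cultures is not in the labels, and p-values therefore cover just the library-to-library spread, possibly a technical one. The cells are 1 established line in a transient transfection, in which cells that took up the plasmid and cells that did not were lysed together.

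The urothelium is a layered epithelium in which basal cells renew the tissue and luminal umbrella cells seal it. PPARG, a nuclear receptor, with FOXA1 and GATA3, drives the luminal programme of uroplakins and simple keratins. TP63 maintains basal cells and their keratins, and TFAP2A works beside it in stratified epithelia. GRHL3, a grainyhead factor, is needed in mouse for maturation of umbrella cells and for the skin barrier, and OVOL1, a zinc finger repressor, helps epidermal cells leave the cycle and differentiate. KLF5, ELF3 and GRHL2 are broad epithelial factors that also act outside the luminal programme, so their place among the luminal regulators is a convention.

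The promoters of a regulator that rose, GRHL3, and of one that fell, GATA3, are shown first because, of the 10 regulators, GRHL3 had the highest log2 change and GATA3 the lowest. RefSeq's promoter table (GRCh38.p14) matched 8 of the 10 genes, and the window nearest the start of the principal transcript was taken. The stretches below are the bases before the start, on the plus strand and 5′ to 3′, cut where the annotated principal transcript begins. Capitals mark letters matching a searched motif on either strand.
GRHL3, chr1:24319107-24319321: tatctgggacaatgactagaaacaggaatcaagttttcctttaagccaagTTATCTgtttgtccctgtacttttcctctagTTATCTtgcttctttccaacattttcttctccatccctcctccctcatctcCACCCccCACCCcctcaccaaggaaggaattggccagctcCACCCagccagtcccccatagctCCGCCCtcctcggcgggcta
GATA3, chr10:8054438-8054687: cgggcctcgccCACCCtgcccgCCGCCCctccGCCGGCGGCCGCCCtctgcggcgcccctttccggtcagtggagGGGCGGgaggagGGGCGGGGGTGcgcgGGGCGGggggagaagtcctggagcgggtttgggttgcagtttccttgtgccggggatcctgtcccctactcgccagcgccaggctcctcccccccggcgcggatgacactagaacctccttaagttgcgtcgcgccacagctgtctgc

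The GRHL3 stretch held 2 matches to the GATA letters AGATAA, which 9.17% of all 35116 promoter stretches of 250 bases hold at least once. It also held 3 matches to the CACCC box (CACCC, in 54.7% of promoters) and 1 to the GC box (GGGCGG, in 42.6%), letters that KLF and SP factors bind. The GATA3 stretch held 5 GC boxes, 2 CACCC boxes and 1 AP-2 match (GCCNNNGGC, in 19.8%), and some of these overlap each other. The grainyhead letters AACCGGTT (0.117% of promoters), the ETS letters GGAAGT (19.5%), AP-1 (TGANTCA, 6.57%), the E-box CACGTG (6.34%), FOX (TGTTTAC, 2.98%), OVOL (CCGTTA, 2.45%) and the nuclear receptor letters AGGTCA (12.1%) had no match in either stretch. These matches describe letters and not occupied sites.

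The deposited values are reads on a scale close to CPM (reads scaled to a common library size), from 17390421 to 21570890 recovered reads per library. MAT1A stood at 1805, 1834 and 1917 in the MAT1A libraries, against 1.09, 0.253 and 4.54 in the control libraries, so the labels matched the transfected gene. Of 12 urothelial and epithelial markers 11 were listed; KRT7, a simple keratin, averaged 3352 ± 161 and 3353 ± 7.3, whereas the uroplakin gene UPK2 averaged 0.870 ± 0.24 and 0.832 ± 0.14, in MAT1A and control libraries (SD, n = 3 each). Skeletal muscle transcripts were present and moved with both the group and the library number. All 12 listed muscle markers were called lower, although the groups overlapped for some of them, and none was at 0 in any library. Their summed level was 73.8, 33.05 and 27.5 in MAT1A libraries 1, 2 and 3. It was 448, 136 and 76.3 in control libraries 1, 2 and 3, so it fell with the number in each group. Where these transcripts came from was not tested. Of 10 fibroblast markers 6 were listed, with sums of 178 to 189 in MAT1A and 206 to 323 in control libraries; 1 of 10 immune markers was listed, with sums of 0.0466 to 0.916 and 0.505 to 1.66, and 2 of 6 endothelial markers, at 41.3 to 42.7 and 37.7 to 43.0. In bulk RNA, fewer cells of a type and less RNA per cell cannot be told apart. Each change below was therefore also fitted with the muscle marker level of a library as a covariate.

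Of the 10 regulators, GRHL3, OVOL1 and ELF3 were higher, KLF5 and GATA3 were lower, and PPARG, FOXA1, GRHL2, TP63 and TFAP2A were not called. Calls are from limma on log2(value + 1) at a Benjamini-Hochberg adjusted p under 0.05 over all genes tested; 11.4% of those genes were called, 4.01% higher and 7.40% lower. By role, 2 of 2 terminal differentiation regulators were higher (median log2 change 0.49), the luminal regulators split into 1 higher, 2 lower and 3 not called (median 0.06), and 0 of 2 basal regulators were called (median -0.03). The median over all genes tested was 0.004. The 3 MAT1A and 3 control libraries did not overlap for the 5 called regulators and overlapped for the other 5, where 30.3% of all genes tested did not overlap (14.7% with MAT1A higher and 15.6% with MAT1A lower). No test was made between the role groups.

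**Figure D1:**
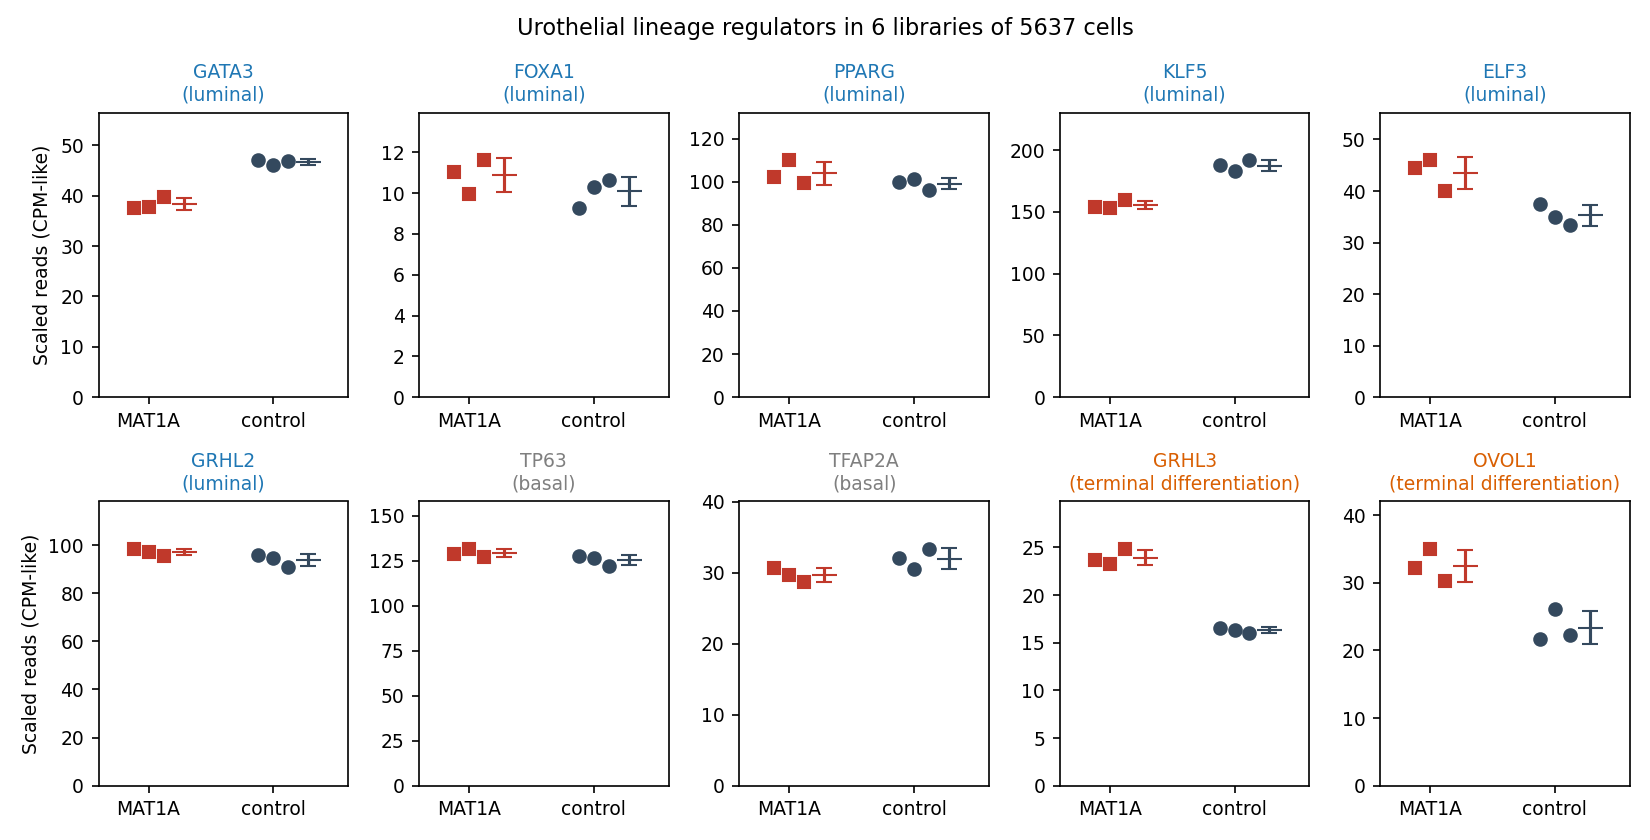
Deposited, CPM-like values of the 10 regulators (y axes, linear from 0), with 1 point per library and bars for mean ± SD over 3 libraries, MAT1A on the left and control on the right of each panel. The MAT1A points lie above all control points for GRHL3 (23.3 to 24.8 against 16.0 to 16.6), OVOL1 and ELF3, below them for KLF5 (153 to 160 against 183 to 192) and GATA3, and overlap them for the other 5.

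GRHL3 showed the greatest change of the 10. It had 23.7, 23.3 and 24.8 in MAT1A libraries 1, 2 and 3, against 16.6, 16.4 and 16.0 in control libraries 1, 2 and 3. The lowest MAT1A library stood well above the highest control library, and the spread within each group was small. The means were 23.9 ± 0.82 and 16.3 ± 0.31 (SD, n = 3 each), 1.47-fold, with a log2 change (± SE) of 0.53 ± 0.06 (limma adjusted p = 1.33e-05; 0.54 with the muscle covariate, adjusted p = 0.00232) resting on 289 to 533 reads per library. The gene lies on chromosome 1 at 24319322 to 24364482 of GRCh38.

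OVOL1, on chromosome 11 at 65787022 to 65797219, rose to 32.2, 35.0 and 30.3 in MAT1A libraries, against 21.7, 26.2 and 22.2 in control libraries. The library numbered 2 was the highest in each group, and the groups did not overlap. The means were 32.5 ± 2.38 and 23.4 ± 2.44 (SD, n = 3 each), 1.39-fold, with a log2 change (± SE) of 0.46 ± 0.07 (limma adjusted p = 0.000345). With the muscle covariate the log2 change was 0.41 and the call was lost (adjusted p = 0.0536). OVOL1 shares 1044 bases of exon with an antisense gene, AP001266.1, and the library kit does not mark strand, so reads of the pair cannot be told apart.

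Among luminal regulators, ELF3 alone was called higher. This ETS factor of differentiated epithelia had 44.5, 45.9 and 40.1 in MAT1A libraries, against 37.5, 35.0 and 33.4 in control libraries. The gap between the lowest MAT1A and the highest control library was narrower than for GRHL3. The means were 43.5 ± 3.05 and 35.3 ± 2.06 (SD, n = 3 each), 1.23-fold, with a log2 change (± SE) of 0.29 ± 0.06 (limma adjusted p = 0.00296; 0.41 with the muscle covariate, adjusted p = 0.00732). ELF3 lies on chromosome 1 at 202007945 to 202017188 and shares 664 bases of exon with ELF3-AS1 on the opposite strand. It also shares 664 bases of exon with AL691482.3 on the same strand.

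KLF5, a zinc finger factor of proliferating epithelium, was the most highly read luminal regulator and fell. It had 154, 153 and 160 in MAT1A libraries, against 188, 183 and 192 in control libraries. Every MAT1A library lay below every control library, with 2852 to 3973 reads behind each value. The means were 156 ± 3.52 and 187 ± 4.48 (SD, n = 3 each), 0.830-fold, with a log2 change (± SE) of -0.27 ± 0.03 (limma adjusted p = 3.71e-05; -0.29 with the muscle covariate, adjusted p = 0.00438). KLF5 lies on chromosome 13 at 73054976 to 73077542.

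GATA3, the zinc finger factor used as a marker of urothelial origin, fell by a like amount. It had 37.6, 37.8 and 39.8 in MAT1A libraries, against 47.0, 46.0 and 46.9 in control libraries. The groups were again separate, and the control libraries lay close together. The means were 38.4 ± 1.20 and 46.7 ± 0.53 (SD, n = 3 each), 0.823-fold, with a log2 change (± SE) of -0.28 ± 0.04 (limma adjusted p = 0.000611; -0.29 with the muscle covariate, adjusted p = 0.0372). GATA3 lies on chromosome 10 at 8045378 to 8075203.

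The other luminal regulators were not called, and their intervals bound the change. PPARG had 102, 110 and 99.5 in MAT1A libraries, against 99.6, 101 and 96.4 in control libraries, a log2 change of 0.07 with a 95% confidence interval of -0.02 to 0.15 (limma adjusted p = 0.312). GRHL2, the grainyhead factor that keeps epithelial junction genes on, had 98.4, 97.1 and 95.7 against 96.0, 94.7 and 91.1, a log2 change of 0.05 (95% interval -0.03 to 0.12; adjusted p = 0.437). FOXA1, a pioneer factor, was the lowest of the 10 at 11.05, 9.97 and 11.6 in MAT1A libraries, against 9.30, 10.3 and 10.7 in control libraries. Its log2 change was 0.10 with the widest interval, -0.08 to 0.27 (adjusted p = 0.483), from 162 to 249 reads, and it was -0.006 with the muscle covariate. For these 3 genes the intervals leave out a rise of the size seen for GRHL3, and the groups overlapped for each.

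The basal regulators were not called either. TP63 had 128.9, 131.5 and 126.8 in MAT1A libraries, against 127.6, 126.2 and 122.2 in control libraries. The log2 change was 0.04 (95% interval -0.03 to 0.11; limma adjusted p = 0.467), and the groups overlapped. One value per gene sums the TA and ΔN isoforms, which start from different promoters, so a change between them would not be seen. TFAP2A had 30.7, 29.7 and 28.8 against 32.1, 30.5 and 33.4, a log2 change of -0.10 (95% interval -0.22 to 0.01; adjusted p = 0.227), the lowest adjusted p among the 5 that were not called. Its exons share 941 and 438 bases with the antisense genes TFAP2A-AS2 and TFAP2A-AS1.

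**Figure D2:**
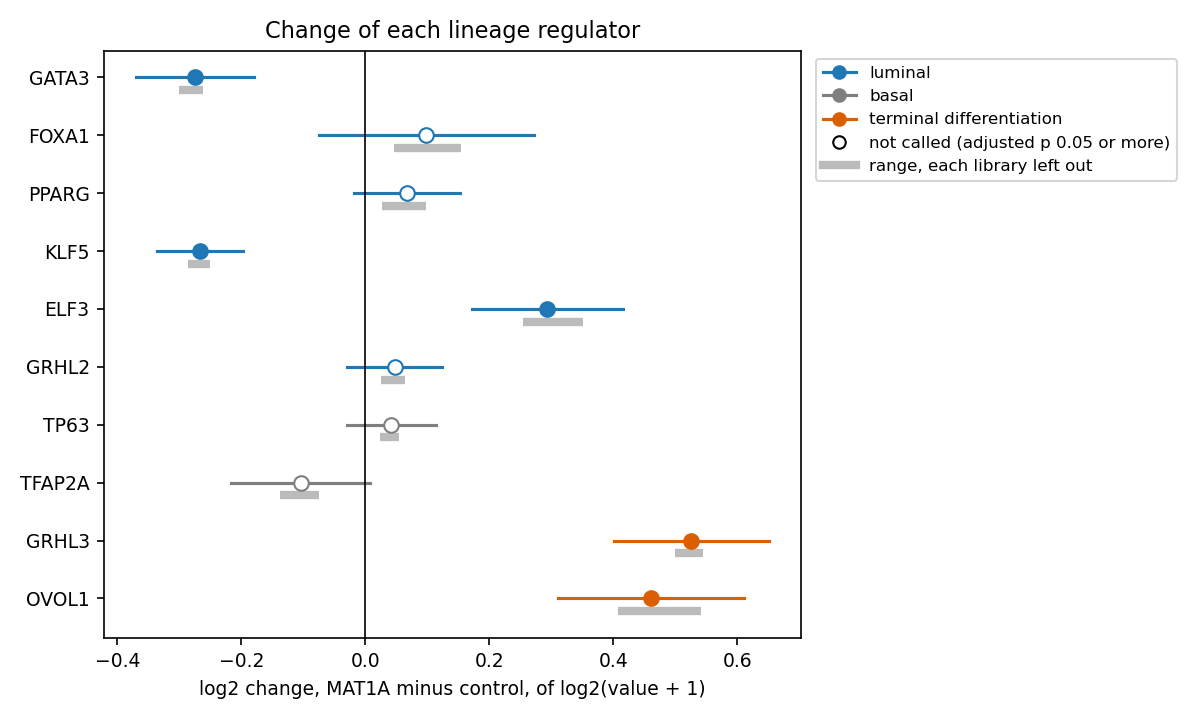
Log2 change of each regulator (x axis; log2(value + 1), MAT1A minus control) with its 95% confidence interval, coloured by role; filled points were called, and grey bars give the range of the change when each of the 6 libraries was left out in turn. The grey bars stay on 1 side of 0 for all 10 genes, from 0.50 to 0.54 for GRHL3 and from -0.29 to -0.25 for KLF5.

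Divided by the length of the principal transcript, the levels of the regulators spanned about an order of magnitude. PPARG stood at 53.8 to 59.4 deposited units per kilobase in MAT1A libraries and 52.1 to 54.8 in control libraries. KLF5 followed at 43.0 to 44.8 in MAT1A and 51.3 to 53.8 in control libraries, so these genes overlapped in control and not in MAT1A libraries. TP63 came next (24.9 to 26.8 over all 6 libraries), then GRHL2 (17.4 to 18.8), GATA3, TFAP2A, OVOL1, ELF3, GRHL3 and FOXA1 (3.25 to 4.06). Neighbours overlapped for GATA3 and TFAP2A in MAT1A libraries (14.2 to 15.0 and 13.9 to 14.8), for GRHL2 and GATA3 in control libraries (17.4 to 18.3 and 17.4 to 17.7) and for OVOL1 and ELF3 in control libraries (7.15 to 8.63 and 6.69 to 7.51). ELF3 and GRHL3 overlapped in MAT1A libraries, at 8.03 to 9.20 and 8.11 to 8.66. With all annotated exons as the length, KLF5 and PPARG changed places and TFAP2A moved to the ninth place.

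Of 17 tested relatives of the same factor families, 0 were higher and 4 lower (median log2 change -0.03). With the replicate number as a block 1 was higher. The share called was 23.5%, against 11.4% of all genes tested (4.01% higher and 7.40% lower). For 17 genes, 0 higher is close to the share over all genes. KLF4, a differentiation factor of the same family as KLF5, averaged 51.2 ± 1.28 and 76.1 ± 2.20 in MAT1A and control libraries (SD, n = 3 each; log2 change -0.56, limma adjusted p = 5.83e-08), and KLF6 132 ± 0.20 and 166 ± 3.81 (-0.32, adjusted p = 3.53e-06). GATA6, known from endoderm, averaged 15.5 ± 0.70 and 26.1 ± 2.54 (-0.71, adjusted p = 3.57e-06). FOXA2, also an endoderm factor, averaged 2.47 ± 0.72 and 4.11 ± 0.29 (-0.58, adjusted p = 0.0118), and lost its call without MAT1A 1 or control 3 (adjusted p up to 0.0641; log2 change -0.40 at its smallest). In the same families, KLF3 and GATA2 were not called, with log2 changes of -0.04 each (adjusted p of 0.555 and 0.852); both were named after their values were seen.

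No relative of the rising regulators was called, where 11.4% of all genes tested were. The tested ones were just GRHL1, OVOL2, ELF1, ELF2, ELF4 and EHF. For so few genes, no call is close to the share over all genes. The genes and ratios given next were chosen after their values were seen. GRHL1 had a log2 change of 0.22 (limma adjusted p = 0.113), OVOL2 of -0.29 (0.0776) and EHF, the ETS relative of ELF3, of -0.08 (0.256). The ratio of OVOL1 to OVOL2 was 8.42, 8.11 and 6.36 in MAT1A libraries, against 4.30, 4.54 and 4.01 in control libraries. The ratio of GRHL3 to GRHL2 was 0.240, 0.240 and 0.260 in MAT1A libraries, against 0.173, 0.173 and 0.175 in control libraries. The ratio of ELF3 to EHF was 0.184, 0.209 and 0.160, against 0.146, 0.140 and 0.138. The groups did not overlap for any of these 3 ratios. Each gave p = 0.1 (two-sided exact permutation test, 0.1 after adjustment over the 3), the smallest value that 3 against 3 libraries allow. GRHL3, OVOL1 and ELF3 were already higher without overlap in these same libraries. Neither the gap in the ratios nor their p-value is therefore a separate result.

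**Figure D3:**
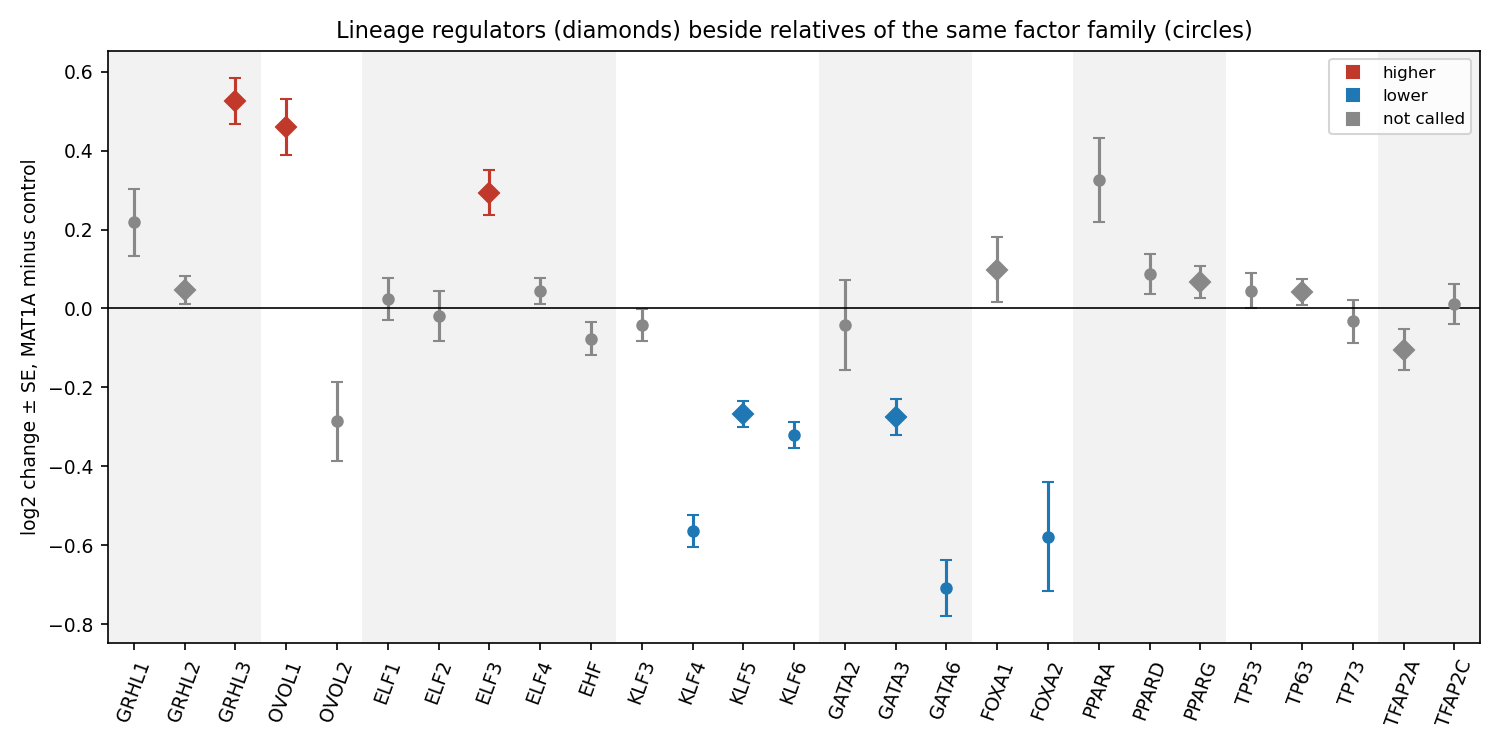
Log2 change ± SE (y axis; log2(value + 1), MAT1A minus control) of the 10 regulators (diamonds) and the 17 tested relatives of their families (circles), grouped by family with shaded bands; red was called higher, blue lower and grey not called. GRHL3, OVOL1 and ELF3 stand at 0.53, 0.46 and 0.29, and their few tested relatives are grey. KLF4, KLF6 and GATA6 are blue beside KLF5 and GATA3, where KLF3 and GATA2 are grey (-0.04 each).

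Among the lists of genes that these factors act with or on, terminal differentiation genes had the highest share called, 70.6%. Over all genes tested the share was 11.4% (4.01% higher and 7.40% lower). Of 27 listed genes of the cornified envelope and stratified keratins 17 were tested, of which 12 were higher and 0 lower (median log2 change 0.56, against 0.004 over all genes tested; 1 lower with the replicate number as a block). The small proline-rich protein genes SPRR2D, SPRR2A, SPRR2E and SPRR1B, whose products are cross-linked into the envelope, rose by log2 changes of 0.70, 0.70, 1.15 and 0.56 (limma adjusted p of 2.69e-09, 7.72e-09, 2.41e-08 and 7.86e-07). SPRR2E averaged 17.6 ± 0.65 in MAT1A libraries and 7.40 ± 0.61 in control libraries (SD, n = 3 each). SPRR2 genes are near-identical copies, so how reads divide among them is uncertain and their calls are not separate results. Some of the 12 higher genes would not have passed the filter on low values from the control libraries alone. Calls of those genes are not separate evidence of a rise. With a filter of 5 or more in 3 libraries, 8 of the genes still tested were called higher. TGM1, the transglutaminase gene that cross-links the envelope and a target of GRHL3, chosen after its values were seen, averaged 4.61 ± 0.48 and 4.64 ± 0.19 (log2 change -0.01, adjusted p = 0.961).

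Of 23 listed luminal genes 15 were tested, of which 9 were higher and 0 lower (median log2 change 0.14). The share called was 60%, against 11.4% of all genes tested. TMPRSS2, a membrane protease gene, averaged 24.5 ± 1.02 in MAT1A libraries and 18.2 ± 0.54 in control libraries (SD, n = 3 each; log2 change 0.41, limma adjusted p = 0.000199), and the claudin gene CLDN7 107.5 ± 3.70 and 87.7 ± 6.44 (0.29, adjusted p = 0.000586). CLDN4 (0.13, adjusted p = 0.0145) lost its call without MAT1A 1 or control 3 (adjusted p up to 0.0786), and GPX2, an epithelial glutathione peroxidase (0.55, adjusted p = 0.015), without MAT1A 1 or control 1 (up to 0.0727). GPX2 averaged 1.45 ± 0.15 in MAT1A and 0.681 ± 0.18 in control libraries, and passed the filter on low values only through the MAT1A libraries. The count of 9 depended on single libraries: it was 2 without MAT1A 1, 5 without control 1, 4 without control 2 and 3 without control 3, and 2 with the muscle covariate. Both TMPRSS2 and CLDN7 were called in every fit that left out a library and with the muscle covariate (adjusted p = 0.0411 and 0.000769).

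All 23 listed basal genes were tested, of which 7 were higher and 2 lower (median log2 change 0.02; 4 lower with the replicate number as a block, and 1 without control 2 or control 3). The share called was 39.1%, against 11.4% of all genes tested. The keratin genes KRT17, KRT5 and KRT6A rose by log2 changes of 0.44, 0.32 and 0.19 (limma adjusted p of 6.39e-07, 2.67e-05 and 0.000264), as did the cadherin gene FAT2 (0.40, adjusted p = 3.67e-05). KRT5, the partner keratin of basal cells and a target of TP63, averaged 1918 ± 99.6 in MAT1A libraries and 1539 ± 55.3 in control libraries (SD, n = 3 each). NGFR, a receptor gene of basal cells, averaged 0.759 ± 0.06 and 2.64 ± 0.25 (-1.05, adjusted p = 2.12e-05). It passed the filter on low values only through the control libraries, where it is high. LAMB3, a laminin gene of the basement membrane, fell by 0.13 on the log2 scale (adjusted p = 0.0108) and lost its call without control 2 or control 3 (adjusted p up to 0.0875).

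Targets of PPARG known from fat and liver cells showed no common direction. Of 12 listed and 7 tested, CPT1A, which brings fatty acids into mitochondria, rose (log2 change 0.20, limma adjusted p = 0.0107; lost without control 2, adjusted p = 0.0589) and ANGPTL4, which encodes a lipase inhibitor, fell (-0.58, adjusted p = 2.64e-05). The share called was 28.6%, against 11.4% of all genes tested. With the replicate number as a block 3 were higher. RXRA, the partner receptor of PPARG, averaged 203 ± 10.9 in MAT1A libraries and 182 ± 4.24 in control libraries (SD, n = 3 each; 0.16, adjusted p = 0.0118; lost without control 3, adjusted p = 0.0783).

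Of 26 other epithelial regulators 22 were tested, of which 3 were higher and 8 lower (median log2 change -0.14). The share called was 50%, against 11.4% of all genes tested. Besides RXRA, CEBPA, a factor of epithelial and fat cell differentiation, was higher (0.58, limma adjusted p = 0.0119) and lost its call without MAT1A 1 (adjusted p = 0.0577). CEBPA averaged 1.41 ± 0.295 in MAT1A and 0.603 ± 0.05 in control libraries (SD, n = 3 each). It passed the filter on low values only through the MAT1A libraries, where it is high. TBX3, a T-box factor of bladder development, averaged 59.9 ± 4.01 and 80.4 ± 1.33 in MAT1A and control libraries (SD, n = 3 each; -0.42, adjusted p = 9.21e-06). The Notch target HES1 fell by 0.40 on the log2 scale, IRF1 by 0.29 and SOX9 by 0.19 (adjusted p of 6.21e-05, 0.000459 and 0.00244). The count of higher genes was 1 without MAT1A 1 or control 3 and 0 with the muscle covariate, and that of lower genes was 4 without control 3 and 3 with the muscle covariate.

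Mesenchymal transition factors, some of which OVOL1 and GRHL2 are known to repress, lay below 0 for all 5 tested. Of these, 3 were called lower and 0 higher (median log2 change -0.44). Whether OVOL1 or GRHL2 had a part in this was not tested. The share called was 60%, against 11.4% of all genes tested. SNAI2 averaged 83.9 ± 0.21 in MAT1A libraries and 114 ± 4.51 in control libraries (SD, n = 3 each; -0.44, limma adjusted p = 4.71e-07). ZEB2 averaged 1.29 ± 0.17 and 3.80 ± 0.29 (-1.07, adjusted p = 8.81e-06) and ZEB1 0.505 ± 0.10 and 1.41 ± 0.23 (-0.68, adjusted p = 0.00388). ZEB1 passed the filter on low values only through the control libraries, where it is high, so its call is not separate evidence of a fall. With a filter of 5 or more in 3 libraries, 1 of the factors still tested was called lower. All 12 muscle markers and 1 of 5 tested fibroblast markers were also called lower. With the muscle covariate SNAI2 and ZEB2 kept adjusted p of 0.000169 and 0.00275 while ZEB1 did not pass (log2 change -0.55, adjusted p = 0.213).

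**Figure D4:**
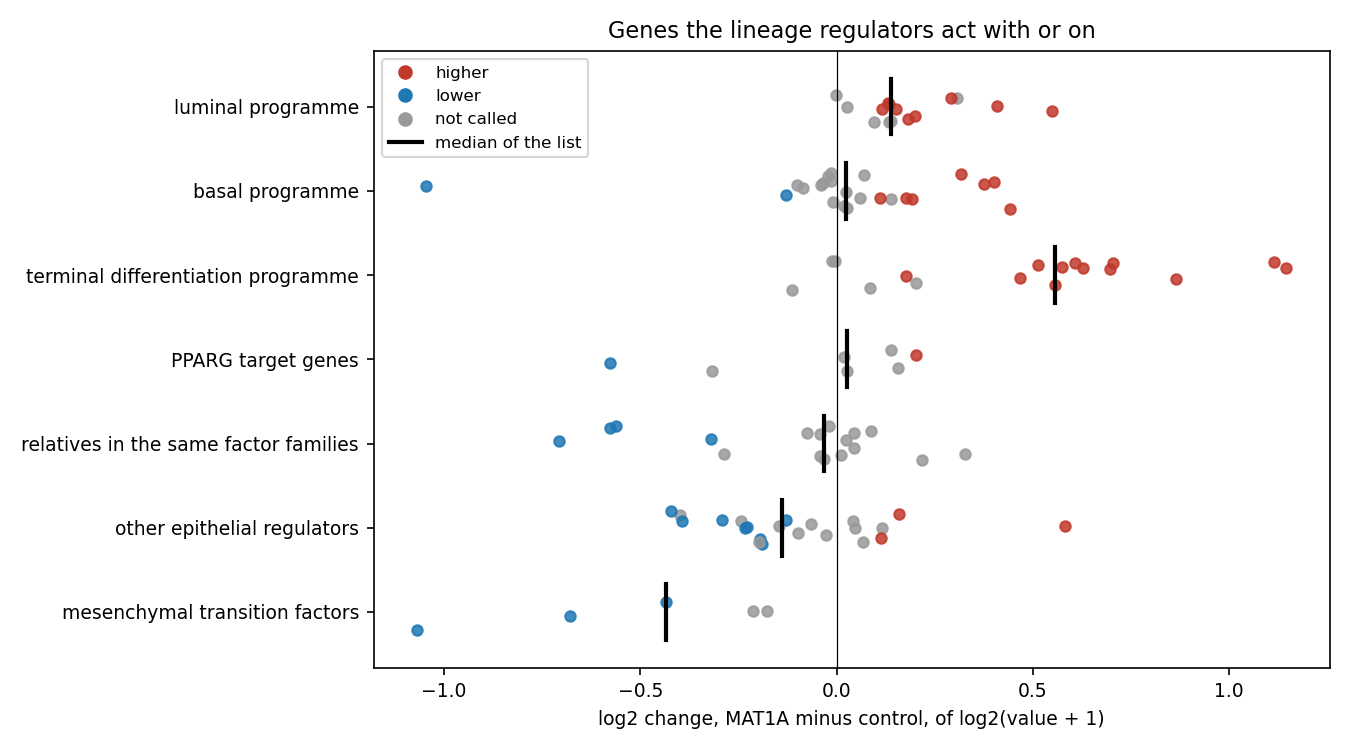
Log2 change of each tested gene in 7 lists (x axis; log2(value + 1), MAT1A minus control); red points were called higher, blue lower and grey not called, and black bars are list medians. Terminal differentiation genes have the highest median (0.56) and mesenchymal transition factors the lowest (-0.44), and the basal and luminal medians are 0.02 and 0.14.

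Likeness of profile was measured as the root mean square, over the 6 libraries, of the difference in log2(value + 1) after each gene was centred on its control mean, among 10541 genes with a mean of at least 5. Nearest to GRHL3 were UNC5B, a netrin receptor gene (0.0573), SPRR1B (0.0651) and AKR1C3, an aldo-keto reductase gene (0.0699). Nearest to OVOL1 were LIPH, a lipase gene (0.0523), KRT17 (0.0688) and SLPI, a protease inhibitor gene (0.0690). For ELF3 they were KLK10, a kallikrein gene (0.0337), CLDN7 (0.0430) and LAMA4, a laminin gene (0.0542). LATS2, a Hippo pathway kinase gene, was nearest to KLF5 (0.0186) and the third nearest to GATA3 (0.0242). KLF5 was next followed by TAF1D (0.0245) and C1GALT1 (0.0246), and GATA3 was led by FEM1C (0.0203) and VEZF1 (0.0224). LATS2 averaged 34.0 ± 0.53 and 40.65 ± 0.87 in MAT1A and control libraries (SD, n = 3 each), with a log2 change of -0.25. Its fall follows from its choice by likeness to KLF5 and GATA3 in these libraries and is not a separate result. The same holds for the other neighbours, whose shared direction with their regulator follows from the choice.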

How the data were processed

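RNA was sequenced from 3 MAT1A and 3 control libraries. The authors deposited 1 table of signal values, reads divided by a scaled library size; per the submitters' processing notes STAR 2.6.0c, featureCounts and edgeR were used with hg38; no source used here names the annotation or settings. All values (100%) were whole multiples of a step per column to within 0.01 reads, which gave the recovered reads; 3 reads correspond to 0.140 to 0.172, a floor that covers counting error only. The planned limma 3.58.1 test (R 4.3.3) with an intensity trend ran on log2(value + 1), a scale that understates changes of low genes; edgeR 4.0.16 and DESeq2 1.42.0 ran on recovered reads as alternatives. Members, lists, motifs and tests were chosen with earlier results of these data known. Named genes were all members, up to 4 called genes per list and direction by smallest p, and the 3 nearest profiles of each called member; others are marked, and 1 gene that the rule names is not reported here. Positions and exon lengths are from GENCODE 29 (GRCh38, the same build as hg38), which matched 13211 of 13271 symbols; promoters are from RefSeq.

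Same-group libraries differed by more than sampling noise (chi-square per degree of freedom 1.87 to 4.46). Deviations from group means of libraries with the same number correlated at 0.25, 0.18 and 0.19 across genes. This is a hint, from the values alone, that the numbers pair the samples, and no label says so. The main test did not pair the samples, and the replicate number was a block in alternative fits only. The limma step was tested on simulated data.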

Additional observations from a re-analysis of the deposited data

How the results depend on the processing

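Each of the 10 members kept its call and direction under all 20 alternatives, except that OVOL1 was not called with the muscle covariate (log2 change 0.41, adjusted p = 0.0536) and FOXA1, never called, had a log2 change of -0.006 there; the counts of 3 higher and 2 lower members otherwise held, also with the replicate number as a block, which gave GRHL3 an adjusted p of 1.38e-06 and GATA3 of 0.000113. Over all genes, 1468 were called (516 higher, 952 lower), 3373 had an unadjusted p under 0.05, and the replicate block gave 2310 (974 higher). DESeq2 gave 957 (319 higher), an adjusted p under 0.01 gave 663 (175 higher, 488 lower), the muscle covariate 376 (78 higher, 298 lower), and the replicate block after removal of a length and GC trend 2513 (1102 higher). Leaving out each library gave 796 to 1658 genes, 225 to 669 higher and 571 to 989 lower, the lowest without control 3. Called list genes numbered 50, with 29 at an adjusted p under 0.01, 28 with the muscle covariate and 32 to 50 over fits that leave out each library. Of the named list genes, 8 lost their call with the muscle covariate but kept their direction, with log2 changes of 0.16 for CLDN4 (0.13 without the covariate), 0.43 for GPX2 (0.55), -0.15 for LAMB3 (-0.13), 0.17 for CPT1A (0.20), 0.20 for RXRA (0.16), 0.64 for CEBPA (0.58), -0.17 for SOX9 (-0.19) and -0.55 for ZEB1 (-0.68). GPX2 was also not called by DESeq2. Under every scaling tried, the median of all genes shifted by under 0.1. The muscle level also differed between the groups, and the cause of the calls lost there was not tested. FOXA1 rests on 162 to 249 reads per library, the fewest of the 10 members.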
